A study of Mus musculus with 12 samples.

Results

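Genes of the endoplasmic reticulum (ER) stress response and of protein folding in the ER were followed in immune and other cells of MC38 tumors. The set held 35 genes of the 26938 gene symbols with a count, and all 35 were found in the gene table with at least 1 count. They were named for their known roles: 6 chaperones, 4 disulphide isomerases, 6 co-chaperones and secreted factors, 5 sensors and transcription factors, 7 genes of ER-associated degradation, 4 targets of ATF4 and CHOP, and 3 genes of the translocon. They were selected on known roles with their summed counts per cluster and per tumor in earlier work on these data known, so levels by cell type are given as a description with no test.

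MC38 is a mouse colon carcinoma line of C57BL/6J (B6) origin. They were placed under the skin of female mice of 8 to 12 weeks, which were B6 animals or F1 animals of B6 and 1 of 7 Collaborative Cross (CC) strains, inbred strains bred from several founder strains, so that every host carried a B6 genome copy and the tumor line was the same throughout. Once a tumor had reached 75 to 110 mm3, its host was dosed once with 200 µg of an antibody to PD-1 (aPD1) or of isotype control, and tumors were taken 48 h later, frozen, thawed, dissociated with enzymes and sorted to about 90% CD45+ and 10% CD45- cells. The study classed CC001, CC002 and CC075 F1 hosts as responders to aPD1 and CC036, CC079 and CC080 F1 hosts as non-responders, from tumor growth in other animals. B6 and CC007 F1 hosts stand in no class here. There were 10 responder isotype, 10 responder aPD1, 9 non-responder isotype and 9 non-responder aPD1 tumors, and 5 tumors of each treatment without a class. Hashtagged cells of 4 tumors were run together in each of 12 pools, with the isotype and the aPD1 tumor of 2 strains in a pool. None of the 4 hashtags marked both treatments, so hashtag and treatment cannot be told apart.

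Proteins bound for the cell surface or for secretion enter the ER through the Sec61 channel and fold there with the help of the Hsp70 chaperone BiP (Hspa5), the Hsp90 chaperone GRP94 (Hsp90b1), the lectin chaperones calnexin and calreticulin and disulphide isomerases. When unfolded proteins build up, the unfolded protein response is set off by the sensors IRE1 (Ern1), ATF6 and PERK. IRE1 splices the Xbp1 mRNA, ATF6 is cut to release a transcription factor, and both raise chaperones and degradation factors through the ER stress response element (ERSE), while PERK slows translation and raises ATF4, CHOP (Ddit3) and their targets. Plasma cells and dendritic cells are known for their reliance on this pathway. Counts per gene do not tell spliced from unspliced Xbp1 or cut from uncut ATF6, so sensor activity was not measured.

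The ERSE shows how the chaperone promoters are built. RefSeq promoters of build GRCm38.p6, from 250 bases before to 50 bases after the start, were available for 29 of the 35 genes, and CCAAT followed by CCACG with 9 bases of any kind between them was searched on both strands. The element was found in 9 of the 29 (31.0%) and in 39 of 32851 promoters of the same length (0.119%). The windows below give the gene strand from 5′ to 3′, with both arms of the element in capitals, and read CGTGG and ATTGG where the element lies on the other strand. They are, in turn, chr2:34772020-34772048 (+), chr10:86705633-86705661 (-), chr8:84847070-84847098 (-), chr11:50325795-50325823 (-), chr12:17266486-17266514 (+), chr14:118937822-118937850 (+), chr15:88819515-88819543 (+) and chr19:6046527-6046555 (+).
Hspa5: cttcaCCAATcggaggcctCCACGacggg
Hsp90b1: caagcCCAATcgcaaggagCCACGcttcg
Calr: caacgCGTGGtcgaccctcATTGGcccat
Canx: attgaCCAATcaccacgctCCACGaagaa
Pdia6: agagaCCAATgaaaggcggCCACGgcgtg
Dnajc3: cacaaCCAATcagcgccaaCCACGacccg
Creld2: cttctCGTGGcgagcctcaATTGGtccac
Syvn1: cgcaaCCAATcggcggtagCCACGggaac
In Hspa5, the element began 65 bases before the RefSeq start. Derl3 was the ninth, and Hsp90b1 held a second copy, at chr10:86705528-86705556, that began 107 bases before the start and ran on the other strand (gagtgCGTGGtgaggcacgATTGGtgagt).

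Other elements of the response were rarer among these promoters. The shorter ERSE-II (ATTGG, 1 base of any kind, CCACG) was found in Dnajb11 and Herpud1, 2 of 29, and in 12 of all promoters (0.0365%). The CARE (TGATGNAAN), the element ATF4 binds, was found in Herpud1, Trib3, Chac1 and Asns and in 3.95% of all promoters, and TGACGTGG, a core of the element XBP1 binds, in 0 of 29 and 0.676%. Herpud1 is shown since it held 2 elements, at chr8:94386372-94386392 (+) and chr8:94386311-94386329 (+), and Asns and Chac1 for the ATF4 element, at chr6:7693219-7693237 (-) and chr2:119351043-119351061 (+). The capitals again mark the fixed letters.
Herpud1 ERSE-II: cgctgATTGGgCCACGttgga
Herpud1 CARE: ggcgggTTgCATCAgcccg
Asns CARE: ccacaTGATGaAActtccc
Chac1 CARE: ctgccgTTgCATCActcct
A match is a run of letters and not a measured binding site.

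The 93126 cells of the 48 tumors carried a median of 3333.5 unique molecular identifiers (UMIs, each 1 captured transcript), and 53 to 3082 cells came from a tumor. The cells carried 27 cluster numbers without names. By marker genes, 8 clusters were monocyte/macrophage (55702 cells, called macrophages here), 9 were T/NK (12021 cells), and 1 each were cDC1, cDC2, migratory DC, pDC, fibroblast and granulocytic cells. The last 4 clusters (16017 cells) stayed unnamed. They include cluster 5 (12064 cells), and the study's text lists a subcluster 5 among its macrophages. The main macrophage results leave cluster 5 out. Macrophage sums held 339237 to 10534295 UMIs per tumor and T/NK sums 133482 to 2256001. In the macrophage sums of the 38 classed tumors the 8 macrophage markers together reached 8295 to 27793 CPM (counts scaled to a total of 1000000), against 2.27 to 39.02 CPM for the 8 T/NK markers and 2.37 to 17.7 CPM for the 7 fibroblast markers. The lists of other types, 6 genes each, were higher there: 429.7 to 817 CPM for pDC, 274 to 578 for cDC1, 60.5 to 309 for granulocytic, 37.4 to 212 for cDC2 and 52.3 to 113 for migratory DC markers. The pDC and cDC1 lists hold Bst2 and Irf8, which macrophages also express, and the part of such cells in the macrophage results was not tested. The T/NK sums of 37 classed tumors held 103 to 2362 CPM of macrophage markers beside 3243 to 7123 CPM of T/NK markers. Of 87940 distinct cell barcodes, 4990 were seen in more than 1 library.

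Levels by cell type were taken as the mean CPM over tumors with at least 20 cells of the type. The pDC cluster, of cells known for the secretion of type I interferon, held the highest level for 16 of the 35 genes, and migratory DCs the lowest for 13. Fibroblasts and granulocytic cells were highest for 6 genes each, cDC1s for 3, and macrophages and migratory DCs for 2 each. With counts pooled over tumors the pDC cluster was again highest for 16 genes, and migratory DCs lowest for 18. The pDC level rests on 6 tumors, the granulocytic one on 7 and the fibroblast one on 9. Granulocytic cells had a median of 815 UMIs per cell, the fewest of these types. Immunoglobulin genes stood among the leading genes of the pDC cluster. Of the antibody-secreting cell genes, its cells held 443 UMIs of Mzb1, which pDCs also express, 181 of Jchain (113 CPM), 114 of Iglv1 (71.3 CPM), 92 of Tent5c, 8 of Prdm1, 7 of Sdc1, 1 of Ighg1 and 0 of Tnfrsf17. In the other named types Jchain reached at most 3.56 and Iglv1 at most 1.78 CPM. The part of antibody-secreting cells or of their RNA in the pDC levels was not tested.

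Among the chaperones, the mean level of Hspa5, the ER Hsp70 that also keeps the sensors silent, was 519 ± 120 CPM (SD, n = 6) in pDCs, 513 ± 137 in cDC1s (n = 27), 487 ± 91.6 in fibroblasts (n = 9), 475 ± 99.9 in macrophages (n = 48), 391 ± 92.5 in cDC2s (n = 44), 389 ± 195 in granulocytic cells (n = 7), 302 ± 51.9 in T/NK cells (n = 47) and 158 ± 61.5 in migratory DCs (n = 39). Neighbours in this order differed by less than the larger of their SDs, except T/NK cells and migratory DCs. The chaperones of largest contrast were Hyou1, an Hsp110 partner of BiP, at 93.4 ± 37.98 CPM in pDCs and 13.2 ± 8.78 in migratory DCs (a ratio of 7.10), and Hsp90b1 at 1058 ± 131 and 171 ± 60.9 CPM (6.20).

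**Figure D1:**
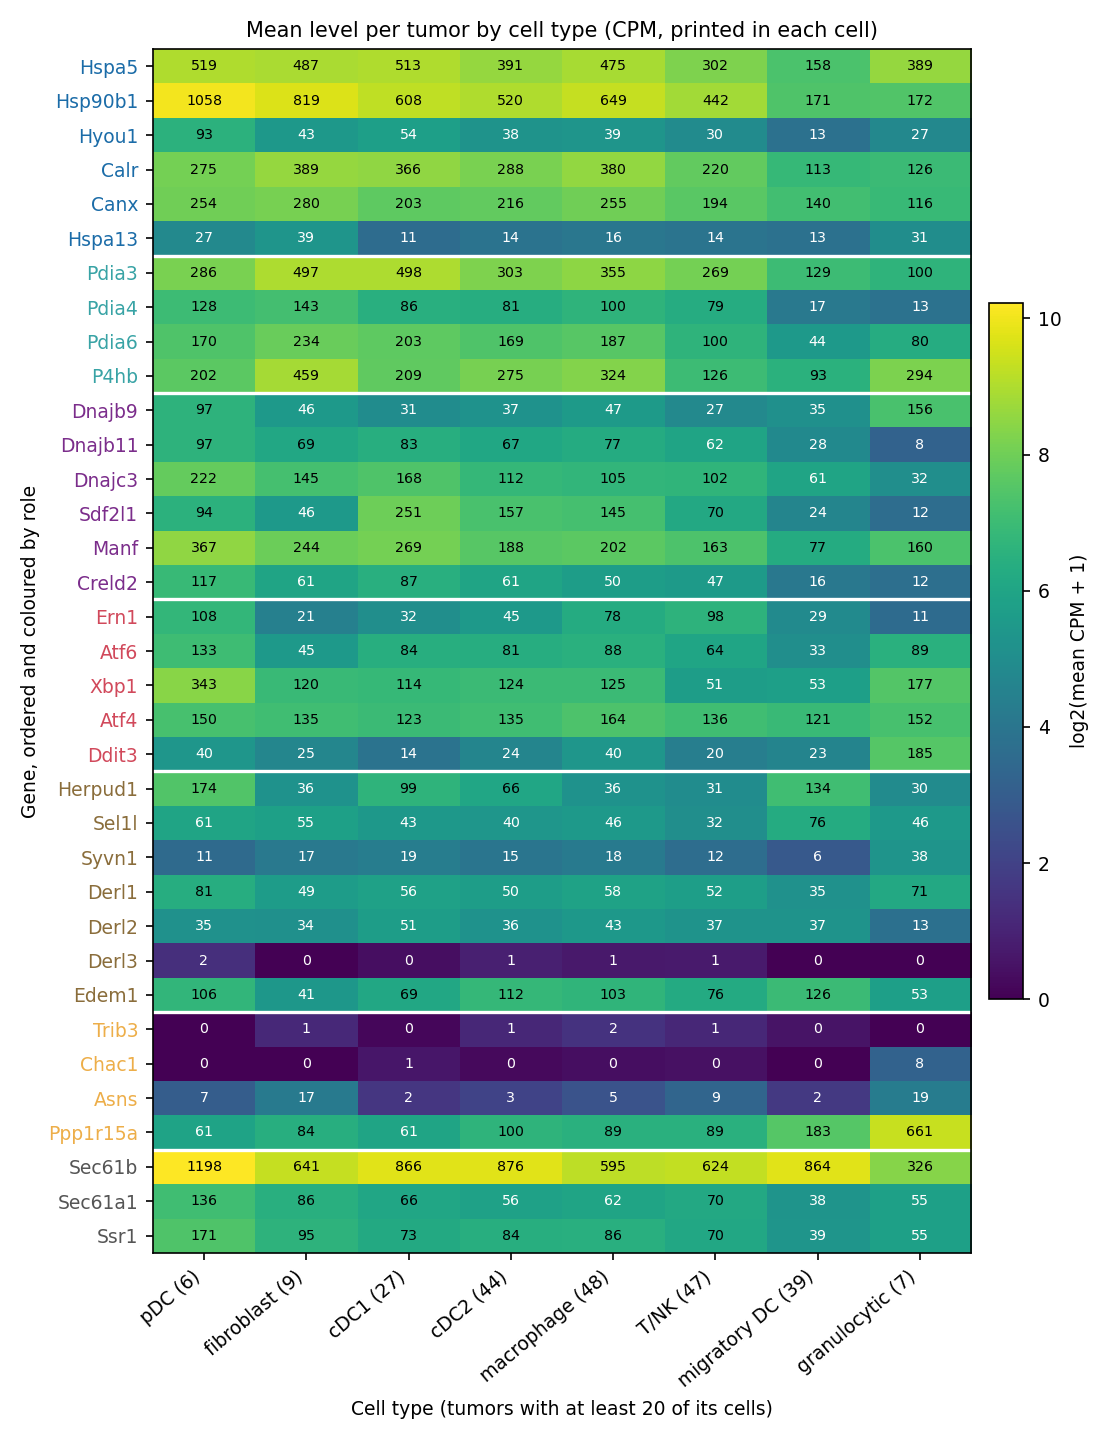
Mean level of each gene in CPM (number in each field, colour on the scale log2(mean CPM + 1)), with genes as rows ordered by role and cell types as columns with their number of tumors. Migratory DCs are low in the chaperone and isomerase rows (Hspa5 158 CPM) and high for Sel1l (76.4 CPM) and Edem1 (126 CPM), pDCs are high for Hsp90b1, Xbp1 and Sec61b, and granulocytic cells for Ddit3 and Ppp1r15a.

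Of the disulphide isomerases, which form and reshuffle disulphide bonds, Pdia4, Pdia6 and P4hb were highest in fibroblasts and Pdia3 in cDC1s. Pdia4 was at 143 ± 29.9 CPM in fibroblasts and 13.4 ± 32.0 in granulocytic cells, where only 20 UMIs were counted in all, and Pdia6 at 234 ± 64.9 CPM in fibroblasts and 44.3 ± 27.2 in migratory DCs. Of the co-chaperones, Sdf2l1, which helps BiP keep clients soluble, was at 251 ± 65.3 CPM in cDC1s and 11.6 ± 22.01 in granulocytic cells (18 UMIs), a ratio of 21.6. Dnajb11, an Hsp40 that delivers clients to BiP, was at 96.7 ± 33.2 CPM in pDCs and 8.34 ± 18.7 in granulocytic cells (18 UMIs). These granulocytic means lie close to the limit of the counts and change with the way tumors are combined: with counts pooled over tumors the granulocytic level was 35.6 CPM for Pdia4, 32.0 for Sdf2l1 and 32.0 for Dnajb11, and the lowest type for all 3 was then migratory DCs (15.4, 23.8 and 27.9 CPM).

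The regulators did not share one order. Xbp1, the transcription factor downstream of IRE1, was at 343 ± 66.7 CPM in pDCs and 177 ± 114 in granulocytic cells, at 125 ± 24.3 in macrophages, 124 ± 28.5 in cDC2s, 120.4 ± 41.7 in fibroblasts and 114 ± 28.3 in cDC1s, and at 53.4 ± 25.0 and 51.3 ± 14.4 CPM in migratory DCs and T/NK cells. Ern1 was at 108 ± 45.7 CPM in pDCs and 11.0 ± 19.8 in granulocytic cells (23 UMIs), but at 40.9 CPM in granulocytic cells with counts pooled over tumors, where fibroblasts were lowest (24.0 CPM). Ddit3, the CHOP transcription factor of prolonged stress, ran the other way, at 185 ± 194 CPM in granulocytic cells with a spread as large as its mean, and at 14.0 ± 10.2 in cDC1s. Under the symbol Ddit3 the GENCODE annotation holds 2 overlapping genes and the counts a single row, so reads could be split or lost and its level is uncertain. Atf4 was the flattest of the genes with a ratio, at 164 ± 36.3 CPM in macrophages and 121 ± 44.3 in migratory DCs (1.36).

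Genes of ER-associated degradation, which pull misfolded proteins out for the proteasome, split by type. Migratory DCs held the highest level of the ligase adaptor Sel1l (76.4 ± 33.9 CPM) and of the mannosidase-like Edem1 (126 ± 42.6). But they held the lowest of the ubiquitin ligase Syvn1 (6.16 ± 7.86, against 37.8 ± 31.4 from 15 UMIs in granulocytic cells). Herpud1 was at 174 ± 70.8 CPM in pDCs, 30.8 ± 10.2 in T/NK cells and 29.98 ± 21.7 in granulocytic cells (23 UMIs). With counts pooled over tumors, Herpud1 was at 40.9 CPM in granulocytic cells and 31.5 CPM in T/NK cells. Of the ATF4 and CHOP targets, Ppp1r15a (GADD34), which restarts translation, was at 661 ± 289 CPM in granulocytic cells and 60.7 ± 35.9 in pDCs, and the asparagine synthetase gene Asns at 18.5 ± 36.7 CPM in granulocytic cells (12 UMIs) and 2.08 ± 2.80 in cDC1s (27 UMIs). The translocon genes Ssr1 and Sec61b were highest in pDCs (171 ± 57.7 and 1198 ± 307 CPM). Derl3, Trib3 and Chac1 had 250, 1564 and 350 UMIs in all cells, and no ratio is given for them.

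The genes also differed in level among the 8 macrophage clusters. Cluster 27, led by Gpnmb, Hmox1 and Mmp12, held the highest Atf4 (256 ± 66.1 CPM, against 110 ± 44.8 in cluster 19), Ddit3 (83.7 ± 31.3, against 27.1 ± 18.03 in cluster 9), Trib3 (10.8 ± 6.68, against 0.576 ± 1.96 in cluster 19), Ppp1r15a (132 ± 45.5, against 45.1 ± 23.7 in cluster 17) and Asns (9.41 ± 8.61). It also held the highest P4hb, a disulphide isomerase (544 ± 187), and the highest Hspa5 (549 ± 161, against 337 ± 102 in cluster 17), but the lowest Hyou1 (29.9 ± 12.3). Cluster 26, led by Cxcl13 and Fcrls, was highest for Hsp90b1 (794 ± 142), Calr (467 ± 77.8), Pdia3, Pdia6, Sdf2l1 (179 ± 48.7) and Manf (229.6 ± 51.0). Cluster 4, led by Ace and Adgre4, was highest for Xbp1 (199.5 ± 45.7, against 69.0 ± 38.7 in cluster 19) and Sec61b (811 ± 164), and lowest for Hsp90b1, Calr, Pdia3 and Pdia4. Ern1 (299.7 ± 177) and Atf6 (311 ± 116) were highest in cluster 19, which had few UMIs per cell (median 1225). The study built its clusters from variable genes of the same cells, and whether these genes were among them is not known, so the contrasts carry no test.

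The next question was whether aPD1 moved these genes within 48 h. In macrophages, 33 of the 35 genes passed the filter on low counts, with Derl3 and Chac1 below it. Levels from here on are CPM after TMM scaling of each tumor's summed counts. Hspa5 was at 349, 474 and 726 CPM (lowest, median and highest of 24 isotype tumors) and at 305, 482 and 641 CPM in 23 aPD1 tumors. The ranges overlapped nearly whole, and the log2 difference, aPD1 over isotype, was -0.11 with a standard error (SE) of 0.078. Xbp1 (-0.07, SE 0.069), Atf4 (-0.02, SE 0.069) and Ddit3 (-0.12, SE 0.093) differed as little. By edgeR's quasi-likelihood test 0 of the 33 genes, and 0 of 12415 genes tested (0%), passed an adjusted p of 0.05. At an unadjusted p under 0.05 there were 0 of the 33 and 350 of all genes, and DESeq2 called 0. The median log2 difference was -0.03 over the 33 genes and -0.001 over all genes. None of the 7 other lists tested beside them, of ER folding, degradation, translocon, sensor, ATF4 target, dissociation and antibody-secreting cell genes, held a gene past the threshold.

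In macrophages of responder against non-responder hosts, 2 of the 33 genes passed: Asns, which makes asparagine and is raised by ATF4, was lower and Hspa13, a small Hsp70-like ATPase of microsomes, was higher. Over all genes 699 of 11377 passed (6.14%), and 2 of 33 is near that share. Asns was at 0.949, 4.82 and 8.22 CPM in 20 responder tumors and at 2.58, 6.96 and 11.6 CPM in 18 non-responder tumors. The groups overlapped, with a log2 difference of -0.70 (SE 0.19, edgeR adjusted p = 0.0183). Hspa13 was at 8.96, 17.2 and 23.6 CPM in responder and at 11.1, 14.4 and 17.8 CPM in non-responder tumors, a log2 difference of 0.25 (SE 0.074, edgeR adjusted p = 0.0321). Tumors of 3 strains stand for each class, and both calls hang on single strains. Asns did not pass without CC002 (-0.50, adjusted p = 0.109), CC036 (-0.62, 0.0806), CC075 (-0.63, 0.0683) or CC079 (-0.62, 0.0844). Hspa13 did not pass without CC002 (0.19, 0.192), CC036 (0.22, 0.133), CC079 (0.28, 0.0548) or CC080 (0.26, 0.073), with pools as blocks (0.25, 0.058) or with libraries scaled by total counts (0.20, 0.101), and it was at -0.01 in macrophage cluster 26 alone. With counts summed per strain, edgeR called 0 of the 33 genes and 3 of all genes. With pools as blocks it called 3 genes of the set, all lower in responder hosts, and 963 in all. With a term for pools 1 to 6 against pools 7 to 12, a split set here and not given by the labels, it called 3 and 988. DESeq2 called 3 and 883.

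Of the 33 genes, 30 had a log2 difference below 0, with a median of -0.12 against -0.005 over all genes, and 11 had an unadjusted p under 0.05, as had 2178 of all 11377 genes. Hspa5 was at 305, 432 and 726 CPM in responder and at 349, 503 and 649.95 CPM in non-responder tumors (-0.17, SE 0.085, edgeR adjusted p = 0.287). Atf4 was at 106, 152 and 208 CPM against 127, 165 and 282 CPM (-0.19, SE 0.094, edgeR adjusted p = 0.26), Ddit3 at 22.9, 36.0 and 59.6 against 25.6, 40.5 and 82.2 CPM (-0.20, SE 0.13) and Xbp1 at 85.3, 107 and 201 against 89.8, 127 and 158 CPM (-0.10). Markers of other cells in the same macrophage sums also differed in level between classes. The 7 MC38 markers summed to medians of 8.45 and 6.61 CPM in responder isotype and aPD1 tumors and 12.5 and 16.3 CPM in non-responder ones (0 to 75.7 CPM over all), and the 6 cDC2 markers to 73.4 and 76.8 against 136 and 145 CPM. Their part in the differences of Asns and of the other genes was not tested. The split of calls over all genes depended on scaling: with libraries scaled by total counts alone 294 genes rose and 488 fell, against 423 and 276 under TMM, and then 6 of the 33 passed, all lower in responder hosts. Under that scaling the median of all genes was -0.06 and that of the 33 genes -0.17.

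From the other lists, 3 genes passed, all lower in responder hosts: the disulphide isomerase Pdia5 (log2 difference -0.48, SE 0.14, adjusted p = 0.0314 by edgeR; 1 of 20 other folding genes), the oligosaccharyltransferase subunit Stt3b (-0.20, SE 0.064, adjusted p = 0.0488; 1 of 23 other translocon and glycosylation genes) and the stress regulator Nupr1 (-0.52, SE 0.10, adjusted p = 0.00112; 1 of 17 other sensors and regulators). None of 19 other degradation genes, 16 other ATF4 targets, 18 dissociation genes and 3 antibody-secreting cell genes did.

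A further question was whether the response to aPD1 differed between classes. Hyou1 was at 32.1, 42.7 and 51.0 CPM in responder isotype tumors and at 24.8, 31.0 and 37.9 CPM in responder aPD1 tumors. In non-responder hosts it went from 29.2, 40.2 and 51.4 CPM to 32.6, 48.4 and 64.3 CPM. Hyou1 was lower with aPD1 in all 10 responder pairs (isotype and aPD1 tumor of 1 strain in 1 pool) and higher in 8 of 9 non-responder pairs. The class by treatment term was -0.69 on the log2 scale (SE 0.17, unadjusted p = 0.000171), which had the smallest p of all 11569 genes and still an edgeR adjusted p of 0.708. That fit held no term for strain, pool or pair, so the pair counts are a description beside it.

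For Hspa5 the groups stood in the same order, from 398, 495 and 726 CPM to 305, 391 and 485 CPM in responder hosts and from 349, 457 and 649.95 CPM to 429.9, 543 and 641 CPM in non-responder hosts. It was lower with aPD1 in 8 of 10 responder pairs and higher in 8 of 9 non-responder pairs, and its term was -0.53 (SE 0.15, edgeR adjusted p = 0.874). Manf, a secreted factor that binds BiP, was at medians of 231 and 189.8 CPM in responder isotype and aPD1 tumors and at 188 and 218 CPM in non-responder tumors (term -0.54, SE 0.18). Creld2, an ER stress-induced isomerase-like protein, was at medians of 59.5, 46.0, 43.1 and 62.7 CPM in the same order (term -0.68, SE 0.24). In each of the 4 genes the groups overlapped.

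**Figure D2:**
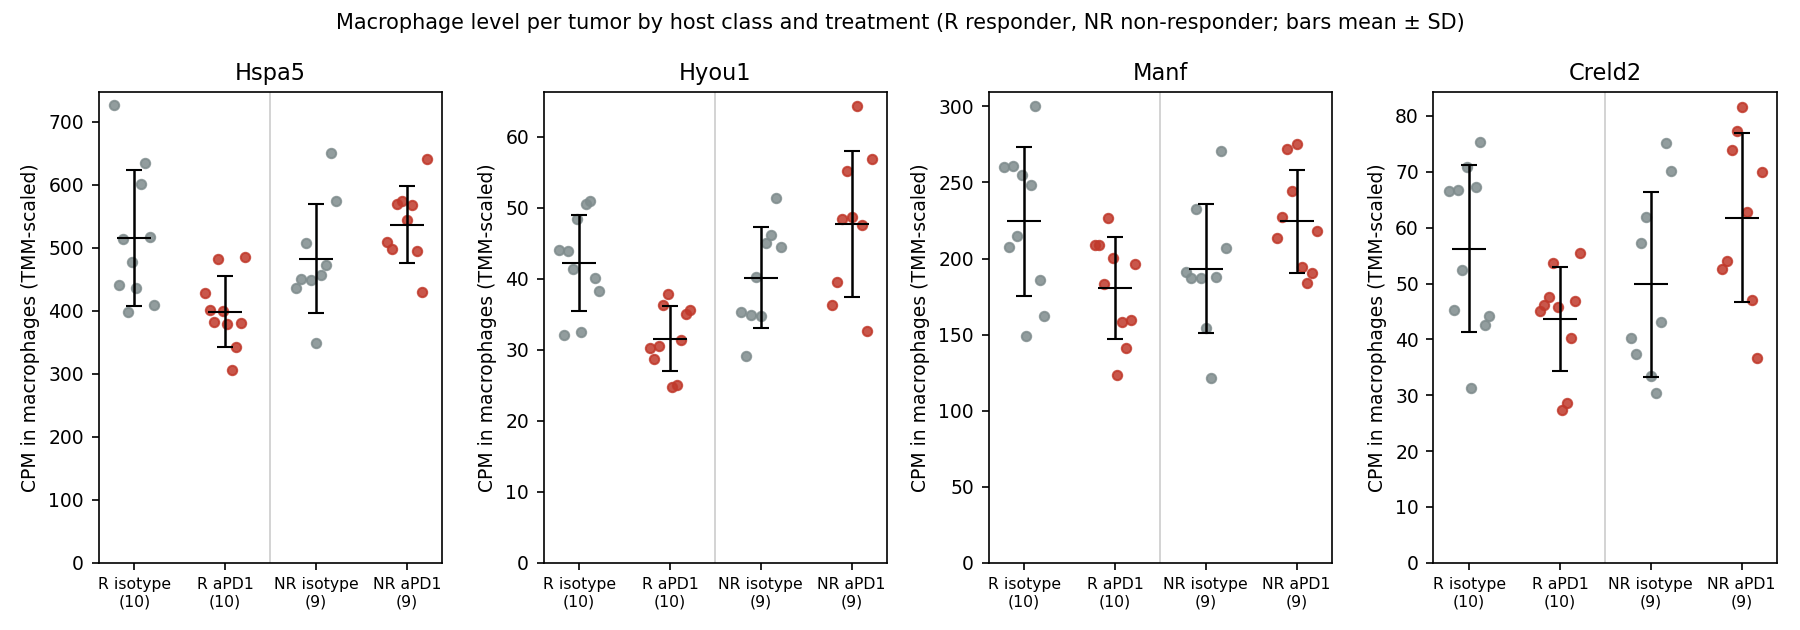
Level of Hspa5, Hyou1, Manf and Creld2 in macrophages (TMM-scaled CPM) by class (R responder, NR non-responder) and treatment, with 1 point a tumor and bars at the mean ± SD. For Hyou1 the 10 responder aPD1 tumors lie between 24.8 and 37.9 CPM and the 9 non-responder aPD1 tumors between 32.6 and 64.3 CPM, so the groups still overlap.

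By edgeR, 0 of the 33 genes and 0 of 11569 genes (0%) passed the adjusted threshold for the class by treatment term. With pools as blocks edgeR called 0 genes of the set and 1 in all, with 1384 of 12632 genes at an unadjusted p under 0.05. Without blocks, at an unadjusted p under 0.05 there were 12 of the 33 and 633 of all genes, and DESeq2 called 0 of the 33 and 1 gene in all. The 12, all with a negative term, were the chaperones Hyou1, Hspa5 and Hsp90b1, the co-chaperones and secreted factors Manf, Creld2, Dnajc3, Dnajb11 and Sdf2l1, the isomerases Pdia6 and Pdia4, the translocon gene Ssr1 and Xbp1 (-0.35, SE 0.16). The sensors and ATF4 targets were not among them. Atf4 (0.14, SE 0.18), Ddit3 (0.15, SE 0.25), Ppp1r15a (0.29, SE 0.27) and Trib3 (0.39, SE 0.41) had terms above 0, and Asns (-0.07, SE 0.39) one below 0. By role, the median term was -0.46 for co-chaperones and secreted factors, -0.36 for isomerases, -0.29 for chaperones, -0.12 for degradation, -0.08 for the translocon, 0.14 for sensors and 0.29 for the 3 tested ATF4 and CHOP targets, against -0.01 over all genes.

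**Figure D3:**
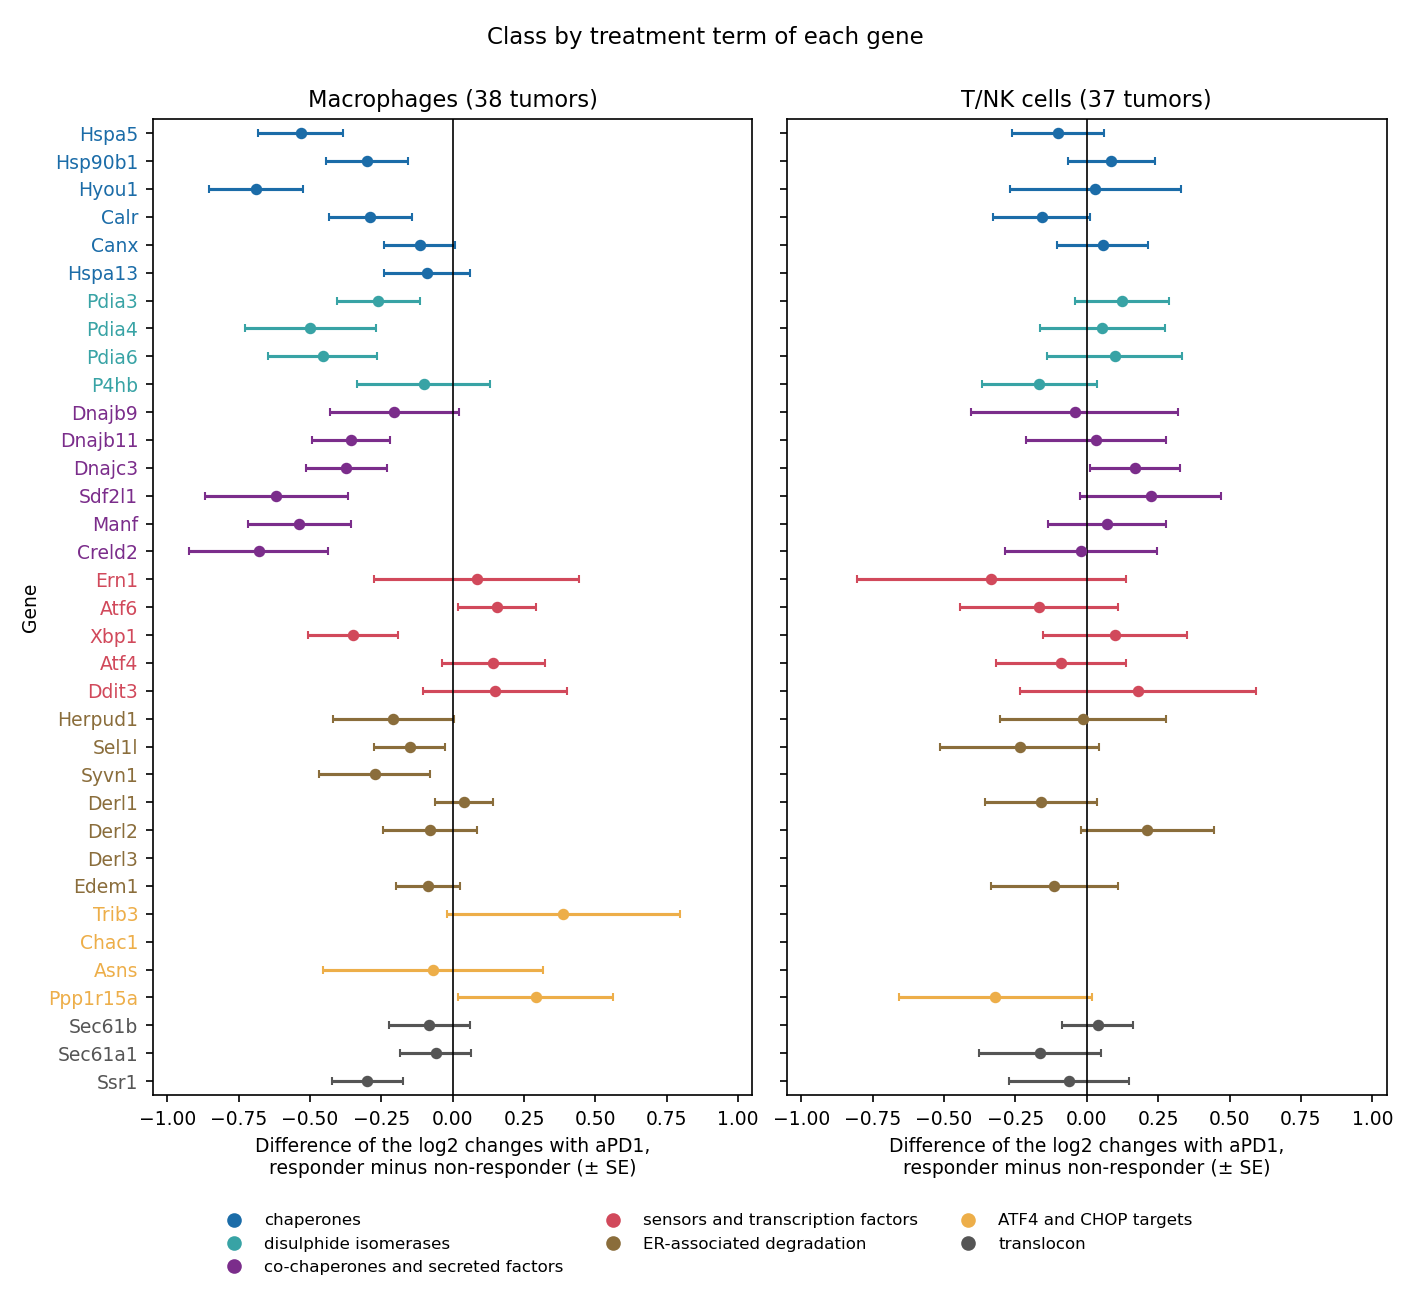
Class by treatment term of each gene (the log2 change with aPD1 in responder minus that in non-responder hosts, bars of 1 SE) in macrophages of 38 tumors and T/NK cells of 37 tumors, in colours of role. In macrophages every chaperone, isomerase and co-chaperone point lies below 0 and 4 of 5 sensors and transcription factors lie above it, in T/NK cells 15 of 29 points lie below 0, and 0 passed the adjusted threshold in either.

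Within the 3 largest macrophage clusters the term of Hyou1 was -0.97 in cluster 2, -0.72 in cluster 26 and -0.99 in cluster 4, and that of Hspa5 -0.75, -0.53 and -0.58, none past the threshold. Atf4 and Ddit3 turned below 0 in cluster 2 (-0.05 and -0.09) and cluster 4 (-0.04 and -0.13). The share of cluster 2 among macrophages had a median of 28.5% in responder isotype, 38.5% in responder aPD1, 27.4% in non-responder isotype and 35.8% in non-responder aPD1 tumors. Over 17 alternatives the term of Hyou1 ran from -0.99 to -0.56 (edgeR or DESeq2 adjusted p from 0.157 to 1) and that of Hspa5 from -0.75 to -0.39. Other ER folding genes had a median term of -0.14 with 5 of 20 above 0, and other translocon and glycosylation genes -0.17 with 4 of 23 above 0. The 16 other ATF4 targets had a median of -0.16 with 5 above 0, the 19 other degradation genes 0.02 with 11 above 0, the 17 other sensors and regulators 0.04 with 9 above 0, and the antibody-secreting cell genes 0.65 with 3 of 3 above 0. The 18 dissociation and heat shock genes had a median term of 0.19 with 13 above 0, and their summed level had medians of 10633, 12261, 11189 and 10327 CPM in the groups in the order above. Markers of other cells in these sums were low but also differed, with medians of 30.3, 48.1, 27.8 and 22.3 CPM for the 6 endothelial markers and 6.31, 10.8, 6.82 and 5.14 CPM for the 8 T/NK markers. The part of these values in the chaperone terms was not tested.

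The terms can be set beside the promoter element. The 8 tested genes with an ERSE all had a negative class by treatment term (median -0.34), as had 14 of the 19 tested genes with a promoter entry and no ERSE (median -0.10) and 3 of 4 other tested genes of the genome with the element (Adcy3, Alg12, Hnrnpa3 and Pan2; median -0.23). Of all 11569 genes tested, 6009 had a negative term (median -0.01), and 0 passed the adjusted threshold. Hyou1 and Manf are not among the 29 genes and stand in neither group. The genes with and without the element also differ in role, and the part of the element in these terms was not tested.

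The same comparisons were made in T/NK cells. By edgeR, 0 of 32 tested genes passed for treatment (0% of 8379 genes; 1 of the 32 and 339 of all at an unadjusted p under 0.05; 0 by DESeq2). Hspa5 was at 219.9, 301 and 396 CPM in isotype and at 221, 310 and 419.97 CPM in aPD1 tumors, a log2 difference of 0.005 (SE 0.072), and Xbp1 at 23.5, 48.7 and 80.7 against 36.4, 49.6 and 78.7 CPM (0.08). Atf4 was at -0.02 and Ddit3 at -0.006 on the same scale. For class, where Asns, Hspa13, Syvn1, Trib3, Derl3 and Chac1 were under the filter on low counts, 0 of 29 tested genes passed against 146 of 6979 genes (2.09%), with 3 of the 29 and 965 of all at an unadjusted p under 0.05 and 0 and 203 by DESeq2. Of the 146 genes 63 were higher and 83 lower in responder hosts, and with total-count scaling 45 and 122. The 3 were Sec61b and Derl2, higher in responder hosts, and Ern1 (-0.53, SE 0.23, edgeR adjusted p = 0.281). Hspa5 differed by -0.07 (SE 0.079), Xbp1 by -0.14 (SE 0.12), Atf4 by -0.05 (SE 0.11) and Ddit3 by -0.11 (SE 0.20). Of the other lists 1 gene passed: the dsRNA kinase Eif2ak2, from the other sensors, was lower in responder hosts (-0.55, SE 0.15, edgeR adjusted p = 0.0405).

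Asns, untested there, was at 0, 5.65 and 19.5 CPM in 20 responder tumors and at 4.37, 14.8 and 21.0 CPM in 17 non-responder tumors, with wide overlap. The class by treatment term in T/NK cells passed for 0 of 29 genes and for 0 of 7290 (0%), with 0 and 244 at an unadjusted p under 0.05 and 0 by DESeq2. The term was 0.03 (SE 0.30) for Hyou1, -0.10 (SE 0.16) for Hspa5, 0.10 for Xbp1, -0.09 for Atf4 and 0.18 for Ddit3, with 15 of the 29 below 0. Whether these terms differ from those of macrophages was not tested. Macrophage markers summed to medians of 478, 549 and 479 CPM in T/NK cells of responder isotype, responder aPD1 and non-responder isotype tumors and to 945 CPM in non-responder aPD1 tumors. Of the 7 MC38 markers, 4 had no count in the T/NK sums. The rest summed to medians of 89.2, 82.4, 120.9 and 163.8 CPM in the same order of groups, so these sums rest on few genes. The part of macrophage or MC38 markers in the levels of Asns and the other genes was not tested.

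More genes differed between host strains, in the set and over all genes. In macrophages, 14 of the 33 differed between the 8 strains by edgeR's F test, which is below the share of all genes (6373 of 12415, 51.3%). With pools as blocks 2 genes of the set and 1585 of all genes passed. With total-count scaling 18 of the 33 and 6499 of all genes passed, and by DESeq2 19 and 7146. The log2 range from the lowest to the highest strain had a median of 0.49 over the 33 genes and 0.58 over all genes. CC036 and CC080 each held the highest mean of 11 genes, and CC075 the lowest of 12. By role, 4 of 5 sensors and transcription factors, 3 of 4 isomerases, 1 of 6 chaperones, 1 of 6 co-chaperones and secreted factors, 3 of 6 degradation genes, 1 of 3 ATF4 and CHOP targets and 1 of 3 translocon genes differed. These groups hold 3 to 6 genes each, and with pools as blocks only Asns and P4hb passed, so no contrast between roles is drawn.

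Asns had the smallest p (edgeR adjusted p = 2.19e-06). It was at 3.54, 8.54 and 11.0 CPM (lowest, median, highest of 6 tumors) in CC036 and at 0.752, 1.90 and 3.10 CPM in B6 hosts, which did not overlap. P4hb followed (edgeR adjusted p = 5.21e-06), at 365, 429 and 483 CPM in 8 CC001 tumors and 190, 242 and 302 CPM in 6 CC075 tumors, again without overlap. Both also differed with pools as blocks, as no other of the 33 did.

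Of the regulators, Ern1, Atf4 and Ddit3 had their highest strain mean in CC036 hosts, and Xbp1 and Atf6 in B6 hosts. Ern1 was at 72.3, 125 and 158 CPM in CC036 and 36.2, 48.7 and 65.3 CPM in CC079 tumors (edgeR adjusted p = 0.000112). Atf4 was at 171, 199.5 and 282 CPM in CC036 and 109.6, 140.2 and 162 CPM in CC002 tumors (edgeR adjusted p = 0.00474), and Ddit3 at 36.7, 52.8 and 82.2 against 22.9, 27.4 and 39.7 CPM in the same strains (edgeR adjusted p = 0.00855). All CC036 tumors were in pools 8 to 10, the CC079 tumors in pools 1, 2 and 5, and the CC002 tumors in pools 3, 5 and 12. CC036 thus shared no pool with either strain, and strain and pool cannot be fully told apart in these contrasts. With pools as blocks none of the 3 passed. Cluster 27, highest in Atf4 and Ddit3, made up 8.67 ± 3.79% of macrophages in CC036, 5.32 ± 1.55% in CC002 and 9.32 ± 3.77% in CC001 tumors, and cluster 19, highest in Ern1, 8.33 ± 1.78% in CC036 and 6.49 ± 1.43% in CC079 tumors. The dissociation genes summed to 12329 ± 2302 CPM in CC036, 10701 ± 2455 in CC002 and 9889 ± 886 in CC079 tumors. The part of these values in the strain differences was not tested.

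**Figure D4:**
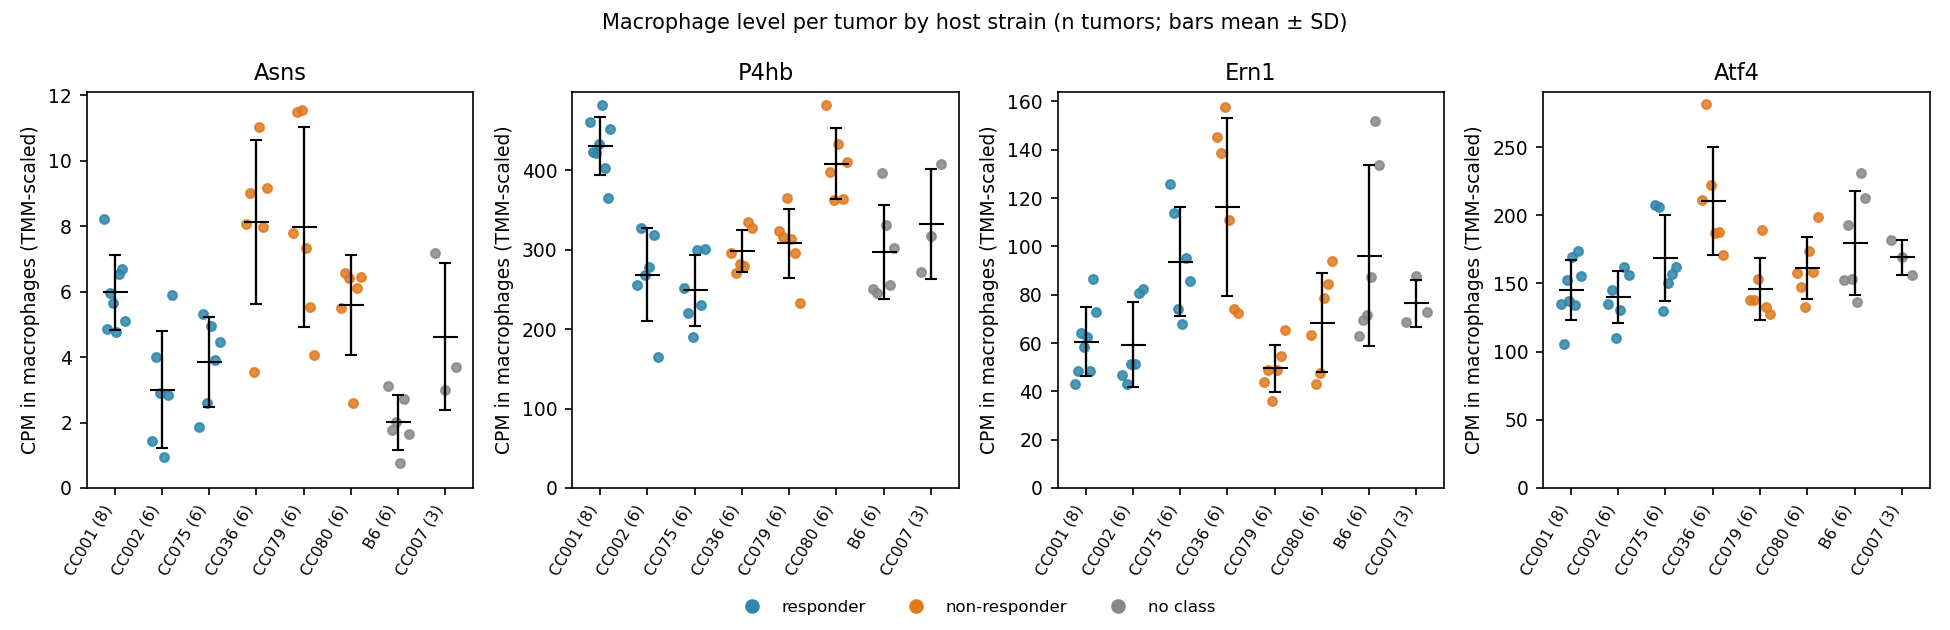
Level of Asns, P4hb, Ern1 and Atf4 in macrophages of each tumor by host strain (TMM-scaled CPM, 1 point a tumor, bars at the strain mean ± SD, colours for class). Asns lies lowest in B6 (mean 2.01 CPM) and highest in CC036 (8.14 CPM), P4hb highest in CC001 (430.4 CPM), and Ern1 and Atf4 highest in CC036 (116 and 210.1 CPM), with strains between them overlapping.

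Among the other genes past the threshold, Edem1 was at 118 ± 15.95 CPM in B6 and 86.3 ± 7.14 in CC001 tumors, the ligase gene Syvn1 at 19.01 ± 1.78 in CC007 (n = 3) and 13.3 ± 2.88 in CC001, and the BiP co-chaperone Dnajb9 at 69.3 ± 17.6 in CC007 and 35.6 ± 3.56 in CC002 (edgeR adjusted p = 0.000969, 0.00142 and 0.00933). The isomerases Pdia6 (234 ± 40.1 against 148 ± 57.6 CPM) and Pdia4 (121 ± 19.5 against 71.1 ± 27.7 CPM) were highest in CC080 and lowest in CC075 (edgeR adjusted p = 0.0213 and 0.025). Derl2, Sec61a1, Hspa13 and Atf6 passed with adjusted p from 0.0269 to 0.0394. Hspa5 itself ran from 422 ± 74.8 CPM in CC007 to 552 ± 66.1 CPM in CC080 without passing (edgeR adjusted p = 0.369), and Xbp1 from 103 ± 12.5 in CC001 to 145 ± 18.1 in B6 (0.062).

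In the other lists, beside the 51.3% of all genes, strain differences were found in 11 of 20 other folding genes (the oxidoreductase Ero1lb with the smallest p, edgeR adjusted 7.95e-07), 7 of 19 other degradation genes, 16 of 23 other translocon and glycosylation genes, 6 of 17 other sensors (Nupr1, adjusted 2.18e-05) and 11 of 16 other ATF4 targets, among them the aminoacyl-tRNA synthetase genes Wars and Sars and the stress gene Sesn2. Of the dissociation genes 8 of 18 differed, led by Hsp90aa1, Btg2 and Dnajb1, as did 4 of 4 antibody-secreting cell genes. With pools as blocks the count over all genes fell from 6373 to 1585.

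In T/NK cells 6 of 32 genes differed between strains, near the share of all genes (2065 of 8379, 24.6%). The translocon subunit Sec61a1 was at 87.9 ± 8.70 CPM in B6 and 52.3 ± 8.03 in CC079 hosts (edgeR adjusted p = 0.00312) and P4hb at 183 ± 79.3 in CC007 and 100.1 ± 15.6 in CC075 (0.0108). As in macrophages, CC036 was highest for Ern1 (186 ± 90.5 CPM against 59.7 ± 13.9 in CC079, adjusted p = 0.0211), for Ddit3 (26.1 ± 9.86 against 12.9 ± 2.74 in CC080, 0.0168) and for Atf4 (167 ± 42.7 against 102 ± 24.4 in CC079, 0.043). Dnajb11 was lowest in CC036 (43.0 ± 8.46) and highest in CC079 (75.1 ± 21.5, 0.034). Hspa5 (0.81) and Xbp1 (0.637) did not pass. The T/NK sums come from the same tumors and pools as the macrophage sums. With pools as blocks 0 of the 32 passed by edgeR, 617 of all genes did, and with at least 100 cells a tumor 3 passed. Of the other lists, 6 of 19 folding, 1 of 18 degradation, 7 of 23 translocon, 2 of 16 sensor, 2 of 14 ATF4 target, 4 of 17 dissociation and 0 of 2 antibody-secreting cell genes differed.

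Which genes rose and fell with Hspa5 from tumor to tumor was read from the macrophages of 47 tumors, as correlations of log2(CPM + 1). By a permutation test 13 of 32 genes of the set had a positive r with an adjusted p under 0.05, against 122 of 12414 genes (0.983%). Creld2 (Pearson r = 0.749, Spearman rho = 0.733), Hyou1 (0.731 and 0.735), Pdia6 (0.723 and 0.771) and Hsp90b1 (0.695 and 0.725) had the 4 largest r of all genes, and Dnajc3, a co-chaperone that also restrains PERK, had 0.693 and 0.721. Each had a permutation p of 1e-05, the smallest that 100000 resamples can give, and an adjusted p of 0.005911. Of genes outside the set the largest r were those of the cytosolic chaperonin subunit Cct8 (0.695), the oligosaccharyltransferase subunit Ostc (0.636), Eef1g (0.626), Fkbp4 (0.622) and Ppp2cb (0.622).

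**Figure D5:**
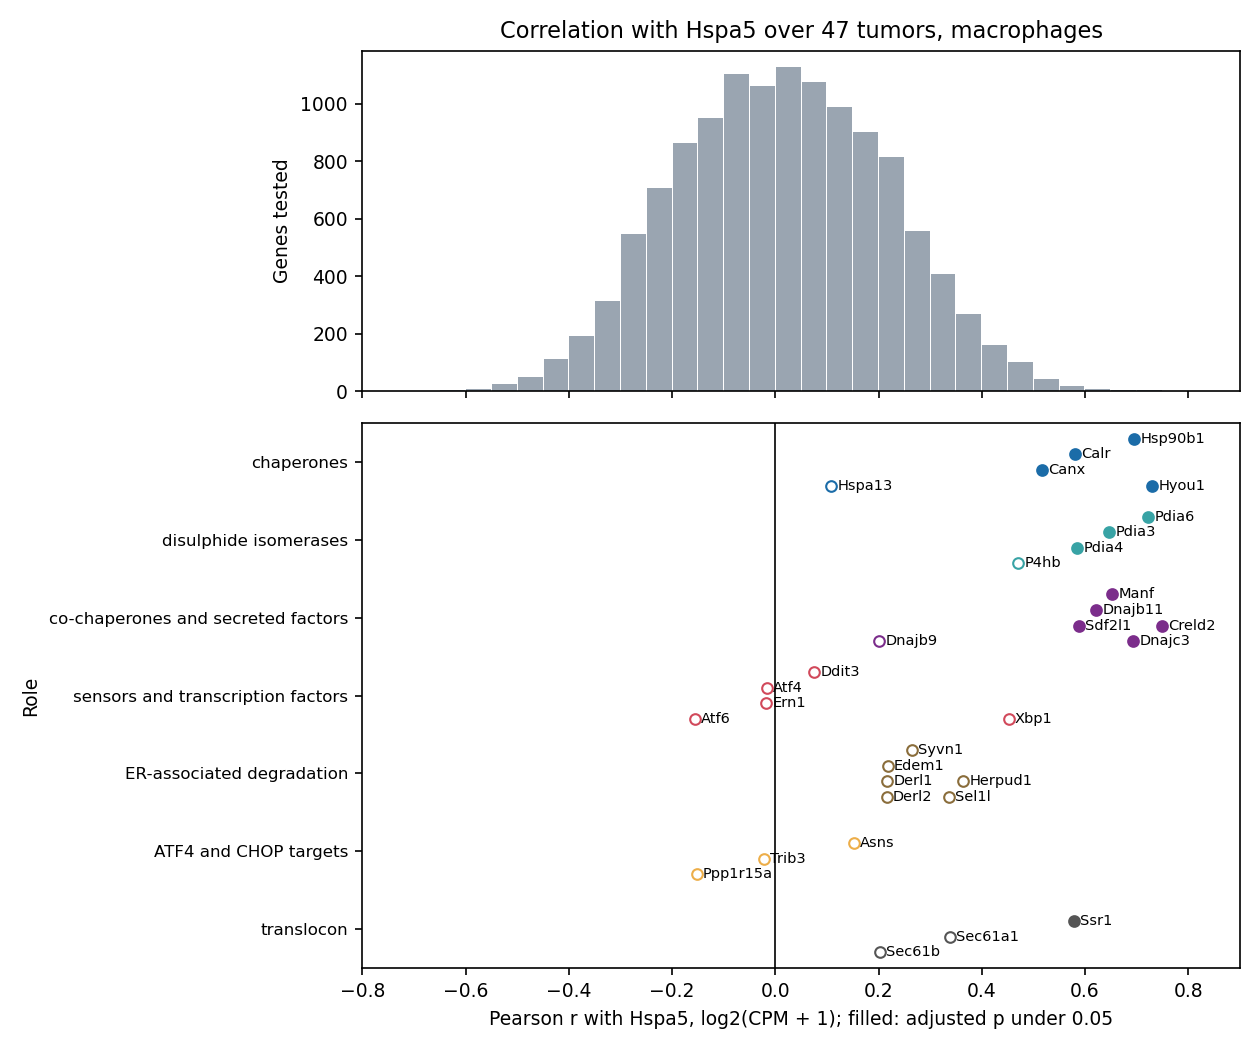
Pearson r with Hspa5 over macrophages of 47 tumors, as a histogram over all 12414 genes (top) and as 1 point for each of the 32 other genes of the set by role (bottom; filled points have an adjusted p under 0.05). The 13 filled points are chaperones, isomerases, co-chaperones and Ssr1, while Atf4 (-0.02), Ern1 (-0.02) and Atf6 (-0.16) lie near or below 0.

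By role the median r was 0.637 for co-chaperones and secreted factors (5 of 6 past the threshold), 0.616 for isomerases (3 of 4), 0.581 for the 5 other chaperones (4 of 5), 0.338 for the translocon (1 of 3), 0.241 for degradation, -0.02 for sensors and transcription factors and -0.02 for ATF4 and CHOP targets (0 past in these), against 0.012 over all genes. Xbp1 stood highest among the regulators (r = 0.453, permutation adjusted p = 0.0698), and Atf4 (-0.02), Ddit3 (0.075), Ern1 (-0.02), Atf6 (-0.16) and Ppp1r15a (-0.15) did not pass. The 7 tested genes with an ERSE had a median r of 0.693 and 6 passed, the 19 without it 0.218 and 5 passed, and the 6 other genes of the genome with it 0.028 and 1 passed. The part of the element in these r was not tested.

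The relation was also computed within pools. In pools 1 to 6 (23 tumors) 0 of 32 genes and 0 of all genes passed, though r was 0.780 for Creld2 and 0.555 for Hyou1, and in pools 7 to 12 (24 tumors) 13 and 302 passed. With 100000 permutations a lone gene at the smallest possible p cannot pass over 12414 genes, which holds for both sets of pools. Whether the 2 sets of pools differed was not tested. With values centred on pool means 16 of 32 and 904 of all genes passed, and without the 2 tumors farthest from the median 11 and 26 did (Creld2 r = 0.727). Over all 47 tumors no relation of Hspa5 with depth, the shares of the 3 largest macrophage clusters or the dissociation genes passed. Here r was 0.179 with macrophage UMIs, -0.04 with the share of cluster 2, -0.04 with that of cluster 26, 0.036 with that of cluster 4 and 0.087 with the summed dissociation genes (permutation adjusted p of 0.8117 for each of the 5). Shares of the other clusters, among them 27 and 17 with the highest and lowest Hspa5, were not tested. In pools 1 to 6 and in pools 7 to 12, r was -0.41 and 0.32 with the share of cluster 4, 0.20 and -0.14 with that of cluster 26, -0.20 and -0.05 with that of cluster 2, 0.05 and 0.28 with macrophage UMIs and -0.06 and 0.04 with the dissociation genes, none of them tested.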

How the data were processed

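Single cells of 48 MC38 tumors were sequenced with the 10x 5′ v2 kit. The authors counted UMIs per gene with Cell Ranger (mm10 and GENCODE vM23 in the study's methods), assigned hashtags, removed cells with high mitochondrial or ribosomal shares, clustered with Seurat 5.0.1 and deposited raw counts as whole numbers with cluster numbers. No doublet caller was run here, and the part of doublets in the results was not tested. Clusters were named here where at least 3 genes and 50% of a marker list reached 100 CPM, and left unnamed where markers of another class, or immunoglobulin genes, were more frequent than its own among the 10 leading genes. Counts were summed per tumor and cell type for tumors with at least 30 cells (20 for levels), the sum of each tumor being 1 replicate from 1 animal, except that 1 animal identifier stood on 2 tumors. They were tested with edgeR 4.0.16 (quasi-likelihood, TMM, filterByExpr, R 4.3.3), with treatment adjusted for strain and class for treatment, and Benjamini-Hochberg adjustment over all genes at 0.05. The class by treatment term was fitted beside class and treatment alone, with no term for strain, pool or pair. The SE is the log2 difference over the root of F. Correlations used log2(CPM + 1) and 100000 two-sided permutations. Scripts were tested on simulated counts with known changes. DESeq2 1.42.0, other scaling and filters, blocks, left-out strains and single clusters were alternatives. The set, its role groups and all lists were chosen with earlier results of these data known. Named were Hspa5, Xbp1, Atf4 and Ddit3 in each comparison, genes past the threshold (at most 10), the 2 of widest ratio by role across cell types, up to 3 genes a list and 5 by r. SDs and SEs cover the spread between tumors, and depth was 133482 to 10534295 UMIs per sum.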

Additional observations from a re-analysis of the deposited data

Results flagged for a closer look

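In 17 of 192 groups of 4 to 10 tumors the highest or lowest tumor stood apart from the nearest by more of the group's range than Dixon's 95% value allows, where chance flags about 1 in 20. All values are TMM-scaled CPM. No explanation was tested.

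Among macrophages grouped by class and treatment, Xbp1 reached 200.63 in 1 responder isotype tumor (CC075, pool 10), where the next was at 143.02. A single non-responder isotype tumor (CC036, pool 8, 833 cells of all types) was highest for both Atf4 (281.57, next 198.45) and Ddit3 (82.219, next 53.979). Among responder isotype tumors Asns was lowest in a CC002 tumor (0.949, next 3.998) and Hspa13 in a CC075 tumor (8.957, next 15.813). Grouped by strain, Asns was at 2.583 in 1 CC080 tumor (next 5.49), Pdia6 at 105.98 in 1 CC002 tumor of 248 cells of all types (next 173.33), Hspa5 at 726.18 in 1 CC001 tumor (next 516.61), and Xbp1 at 179.63 in 1 B6 tumor (next 147.25) and at 97.683 in 1 CC036 tumor (next 130.84). All of these were isotype tumors.

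Among T/NK cells, Ddit3 was at 29.978 in 1 responder aPD1 tumor (CC075, next 21.358) and at 30.448 in 1 CC001 tumor (next 21.317). Sec61a1 was at 37.958 in 1 CC079 tumor (next 54.698), Atf4 at 83.078 in 1 CC036 tumor (next 171.53), Hspa5 at 220.66 in 1 CC075 tumor (next 294.67), and Xbp1 at 74.802 in 1 CC002 tumor (next 51.868) and at 74.241 in 1 CC080 tumor (next 49.919).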

How the results depend on the processing

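Each class is 3 strains, so class and strain can be told apart only as far as strains vary within a class. The T/NK sums held 35 to 810 cells (median 202). Derl3 and Chac1 were under the filter on low counts in both cell types, Trib3 in T/NK cells, and Hspa13, Syvn1 and Asns in the T/NK class and class by treatment fits. Fits with cluster 5, in cluster 5 alone and, for the class by treatment term, in single clusters were chosen after seeing the data.

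In macrophages, the count of the 33 genes called between classes was 6 with total-count scaling, 3 with pools as blocks (963 genes in all), 3 with batch as a term (988), 3 by DESeq2 (883), 1 with no filter on low counts, 0 with counts summed per strain, 0 in cluster 4 or cluster 5 alone and 0 to 3 with each strain left out in turn (0 without CC002 or CC036, 3 without CC001 or CC079). The all-gene count for class was 3 per strain, 339 in cluster 2, 20 in cluster 4 and 349 in cluster 5. Between strains 2 were called with pools as blocks (1585 genes). In T/NK cells 1 was called between classes with no filter (282 genes), 3 between strains with at least 100 cells and 0 with pools as blocks (617 genes). All-gene counts for T/NK class were 352 with pools as blocks, 283 with batch, 3 per strain, 36 without clusters 3 and 13 and 81 to 265 with a strain left out, and that for T/NK treatment was 60 with no filter. The cause of these moves was not tested. The Hspa5 correlation gave 0 in pools 1 to 6 and 13 in pools 7 to 12, with the same smallest p that the permutations can give, and this difference was not tested.

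For the genes named in each comparison, the log2 differences that turned in sign are given here, and of these Hspa13 alone had passed the threshold. The median over the genes of the set for aPD1 in macrophages, -0.03, also turned, to 0.0099 without CC075 and 0.02 in pools 1 to 6. With aPD1 in macrophages, Hspa5 was at 0.001753 in pools 1 to 6, Xbp1 at 0.04911 in cluster 26, and Atf4 and Ddit3 at 0.05148 and 0.08605 in cluster 5, with Atf4 from -0.08008 to 0.006246 with a strain left out. For class in macrophages, Ddit3 was at 0.007393 in cluster 5, Hspa13 at -0.01344 in cluster 26 and Xbp1 from -0.1545 to 0.004012 with a strain left out. For the class by treatment term, Atf4 was at -0.05053 and -0.04497 and Ddit3 at -0.09125 and -0.1348 in clusters 2 and 4. With aPD1 in T/NK cells, Hspa5 was at -0.01039 with at least 100 cells, -0.008343 with pairs as blocks, -0.1087 in pools 7 to 12 and -0.04237 without clusters 3 and 13. Xbp1 was at -0.00761 in pools 1 to 6 and -0.01089 without clusters 3 and 13, and Atf4 at 0.007796 with at least 100 cells, 0.01033 with pairs as blocks and 0.008221 in pools 1 to 6. Ddit3 was at 0.002201 with total counts, 0.01314 with at least 100 cells, 0.001012 by DESeq2, 0.06361 with pairs as blocks, 0.03624 in pools 7 to 12 and 0.03227 without clusters 3 and 13. With a strain left out, Hspa5 ran from -0.01482 to 0.03269, Atf4 from -0.05599 to 0.0369 and Ddit3 from -0.1054 to 0.04681. For T/NK class, Atf4 was at 0.03329 with pools as blocks and 0.03247 per strain, and with a strain left out Atf4 ran from -0.181 to 0.1327 and Ddit3 from -0.4621 to 0.184. For the T/NK class by treatment term these ranges were -0.08258 to 0.2397 for Xbp1, -0.2016 to 0.06683 for Atf4 and -0.0263 to 0.5836 for Ddit3. Pairing isotype with aPD1 tumors as blocks called 0 genes of the set for treatment in either cell type.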

Other observations

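The 4 unnamed clusters, which entered none of the main tests, held some of the widest levels of these genes. Cluster 20 (3411 cells, led by Kirrel3, Tenm3 and Rhox5) carried 890 of the 1564 UMIs of Trib3, a pseudokinase raised by CHOP, and was at 26.3 ± 20.3 CPM for it (SD over 41 tumors). In the same cluster Asns was at 109 ± 58.0, Hsp90b1 at 948 ± 271, Atf4 at 197 ± 51.7, Ddit3 at 60.9 ± 29.0, Hspa5 at 470 ± 149 and Xbp1 at 51.1 ± 34.3 CPM. Among the named cell types the highest Asns level was 18.5 CPM, in granulocytic cells.

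Cluster 15 (293 cells, 5 tumors) held Edem1 at 165 ± 44.7 and Manf at 292 ± 58.1 CPM, and cluster 25 (249 cells, 2 tumors) Syvn1 at 66.1 ± 9.79 CPM. Cluster 5 (12064 cells, 47 tumors) had all 8 macrophage markers at 100 CPM or more but was led by Ighg2c, Hbb-bs, Hba-a1 and Igkc. In it Hspa5 was at 391 ± 105, Atf4 at 103 ± 19.7 and Ddit3 at 19.4 ± 6.75 CPM.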
